A study of Mus musculus with 6 samples.

Results

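The genes described here are 10 markers of epithelial cells, read in subcutaneous fat of the groin (inguinal white adipose tissue, iWAT) of mice that carry an *Hlx* transgene. They are *Epcam*, *Cdh1*, *Cldn3*, *Krt7*, *Krt8*, *Krt18*, *Krt19*, *Krt5*, *Krt14* and *Elf5*. Members were the rows of the gene table whose name equals 1 of these symbols. Such a row was found for 9 of the 10, of 19445 gene loci in all. *Krt14* has no row of its own, because it is listed in 1 row together with *Krt17* and *Krt42*. All 9 genes with a row passed the expression filter, which kept the 11692 loci whose mean exceeded 1 FPKM in either genotype.

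RNA-Seq was performed on iWAT of 3 transgenic mice (TG) and 3 wild-type littermates (WT), with 1 library per mouse. The mice were 12 weeks old, and the labels call all of them male. The transgene places the full-length *Hlx* cDNA behind the *aP2* (*Fabp4*) promoter, which is active in adipocytes. It was injected into embryos of C57BL/6 × SJL hybrid mice, and the lines were then backcrossed to C57BL/6 over 3 or more generations. The part of strain background in the levels was not tested. The tissue was taken whole, so every cell type of the depot contributes RNA. Values are FPKM, the read density of a gene scaled by transcript length and by the mapped reads of the library.

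Epithelial cells form sheets that line ducts, glands and surfaces. Their neighbours are held together by E-cadherin, claudins and EpCAM, and their cytoskeleton is built of keratins, each filament pairing a type I with a type II keratin. Adipocytes, fibroblasts and endothelial cells are not epithelial. In female mice the inguinal fat pad is also the bed of a mammary gland. Its ducts have an inner luminal layer, rich in *Krt8*, *Krt18* and *Krt19*, and an outer basal layer, rich in *Krt5* and *Krt14*.

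*Hlx* had 110, 79.6 and 99.5 FPKM in TG mice 1 to 3 and 6.88, 7.35 and 8.14 FPKM in WT mice 1 to 3, so the genotype labels match the targeted gene. The sex label and the data differ. *Xist*, a long RNA made from the inactive X chromosome of female cells, was at 25.7, 23.3 and 33.6 FPKM in the TG mice and at 20.2, 22.2 and 24.6 FPKM in the WT mice, and all 28 loci of the Y chromosome, among them *Ddx3y*, *Uty*, *Kdm5d* and *Eif2s3y*, were listed at 0 in all 6 mice. The groups overlapped for *Xist* (log2 fold change 0.28, limma adjusted p = 0.207). All 6 mice share this reading, so no comparison could be repeated without it, and the part of sex in the levels given here was not tested. The summed FPKM of a library was between 466059 and 542096. Absolute depth is unknown. Relative depth could be read only weakly. Against WT mouse 3, only 12.6% to 15.3% of the values under 0.3 FPKM shared 1 step, which put the other mice between 0.695 and 1.42 times its depth.

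The epithelial genes were all detected in every mouse. Of the 9 genes, 0 were called higher and 0 were called lower in transgenic iWAT at an adjusted p under 0.05 (limma on log2(FPKM + 1), Benjamini-Hochberg adjustment over all tested loci), where 11.6% of all tested loci were called higher and 7.03% lower. At an unadjusted p under 0.05, 2 of the 9 differed, *Krt7* and *Krt18*, where the share of all tested loci was 36.2%. The fitted difference was negative for all 9 genes, from -0.67 to -0.09 on the log2 scale, with a median of -0.35, where 51.6% of all tested loci had a negative value and their median was -0.01. The 2 genotypes overlapped for each of the 9 genes, whereas they did not overlap at 42.9% of all tested loci. What stood out was the spread between mice, taken over TG and WT mice together. The highest mouse of either genotype exceeded the lowest of either by a median factor of 2.55 over the 9 genes. The factor was 1.49 over the 11644 tested loci with a value in every mouse. It does not separate differences within a genotype from those between the genotypes.

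Stretches of sequence before the start of transcription are given first, for an adhesion gene, a regulator and keratins of both layers, because they hold a sequence that recurs among the members. They are the 250 bases before the start in RefSeq, on build GRCm38.p6, written 5′ to 3′ on the strand of the gene, with CACCTG or its reverse complement CAGGTG in capitals. This is a form of the E-box, CANNTG, at which the repressors Snail and Zeb are known to bind in the *Cdh1* promoter of cells that lose their epithelial state.
*Epcam*, chr17:87635729-87635978, plus strand: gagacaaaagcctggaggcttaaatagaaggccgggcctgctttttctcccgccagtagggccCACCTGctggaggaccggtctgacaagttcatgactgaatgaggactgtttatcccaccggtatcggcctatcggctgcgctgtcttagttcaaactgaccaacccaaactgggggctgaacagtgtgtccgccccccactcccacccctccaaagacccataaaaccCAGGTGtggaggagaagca
*Elf5*, upstream start, chr2:103411848-103412097, plus strand: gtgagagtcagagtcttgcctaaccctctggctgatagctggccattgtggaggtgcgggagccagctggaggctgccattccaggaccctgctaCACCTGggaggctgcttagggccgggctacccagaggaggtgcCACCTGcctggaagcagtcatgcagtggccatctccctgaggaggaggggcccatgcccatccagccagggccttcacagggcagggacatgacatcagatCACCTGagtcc
*Krt18*, chr15:102027966-102028215, plus strand: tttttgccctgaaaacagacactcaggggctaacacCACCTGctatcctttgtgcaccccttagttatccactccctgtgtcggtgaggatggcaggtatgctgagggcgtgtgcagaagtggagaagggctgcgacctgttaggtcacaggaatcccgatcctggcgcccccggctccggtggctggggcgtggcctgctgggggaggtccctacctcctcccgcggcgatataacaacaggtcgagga
*Krt8*, chr15:102004343-102004592, minus strand: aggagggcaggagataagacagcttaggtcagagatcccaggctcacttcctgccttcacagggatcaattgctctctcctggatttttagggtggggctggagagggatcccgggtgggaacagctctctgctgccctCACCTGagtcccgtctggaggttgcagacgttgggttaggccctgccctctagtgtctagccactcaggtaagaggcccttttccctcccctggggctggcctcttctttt
*Krt5*, chr15:101712906-101713155, minus strand: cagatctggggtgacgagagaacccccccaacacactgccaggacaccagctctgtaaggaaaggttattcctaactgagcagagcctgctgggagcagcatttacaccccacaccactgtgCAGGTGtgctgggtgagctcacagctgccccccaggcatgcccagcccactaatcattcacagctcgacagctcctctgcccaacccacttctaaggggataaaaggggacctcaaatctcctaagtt

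The table of RefSeq starts used here was matched for 8 of the 10 members, not for *Cdh1* and *Krt19*. CACCTG, searched on both strands, was found in this window of 6 of the 8, namely *Elf5*, *Epcam*, *Krt18*, *Krt5*, *Krt7* and *Krt8*, and in 19.4% of all 27025 genes in that table. *Elf5* was counted by its upstream start, and the window of its second start held no match. Not all windows lie before the gene as GENCODE annotates it. Those of *Krt14*, without a match, and of *Elf5* and *Krt7*, with matches, lie inside it. The windows of *Krt8* and *Krt18* lie partly inside it, the *Krt8* match within that part and the *Krt18* match outside it. *Elf5* held CACCTG 3 times, beginning 155, 112 and 11 bases before its upstream start. *Epcam* held it at 187 and 19 bases before the start. Searched in the same way, GGGCGG, the GC box, was found for 3 of the 8 (*Cldn3*, *Epcam* and *Krt7*) against 35.4% of all genes, and TATAAA, the TATA box, for 0 of the 8 against 14.3%. A match of letters is a description of the window and does not show binding.

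*Epcam*, *Cdh1* and *Cldn3* encode proteins of epithelial cell contacts. *Epcam*, a transmembrane adhesion molecule of most simple epithelia on chromosome 17 of mm10 from 87635978 to 87651127, had 10.1, 16.7 and 34.9 FPKM in TG mice 1 to 3 and 34.3, 25.3 and 20.4 FPKM in WT mice 1 to 3. Both the lowest and the highest of the 6 values were those of transgenic mice, and the 3 control values lay between them. The means were 20.6 ± 12.8 FPKM and 26.7 ± 7.10 FPKM (SD, n = 3 mice each), and limma put the log2 fold change at -0.50 (SE 0.41, 95% confidence interval from -1.46 to 0.47, limma adjusted p = 0.413). *Cdh1*, which encodes E-cadherin, the calcium-dependent adhesion protein of adherens junctions, had 3.60, 5.29 and 9.16 FPKM in the TG mice and 8.75, 7.28 and 6.21 FPKM in the WT mice. As for *Epcam*, TG mouse 1 was lowest and TG mouse 3 highest. The log2 fold change was -0.33 (95% confidence interval from -0.98 to 0.33, limma adjusted p = 0.423). *Cldn3*, a claudin that seals tight junctions, had 6.67, 10.98 and 17.7 FPKM in the TG mice and 20.1, 14.1 and 10.3 FPKM in the WT mice, with TG mouse 1 lowest and WT mouse 1 highest. Its log2 fold change was -0.35 (95% confidence interval from -1.18 to 0.47, limma adjusted p = 0.497). The locus of *Cldn3* in the table also spans the antisense gene *Wbscr25*, which has a row of its own with at most 0.0391 FPKM in any mouse.

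**Figure D1:**
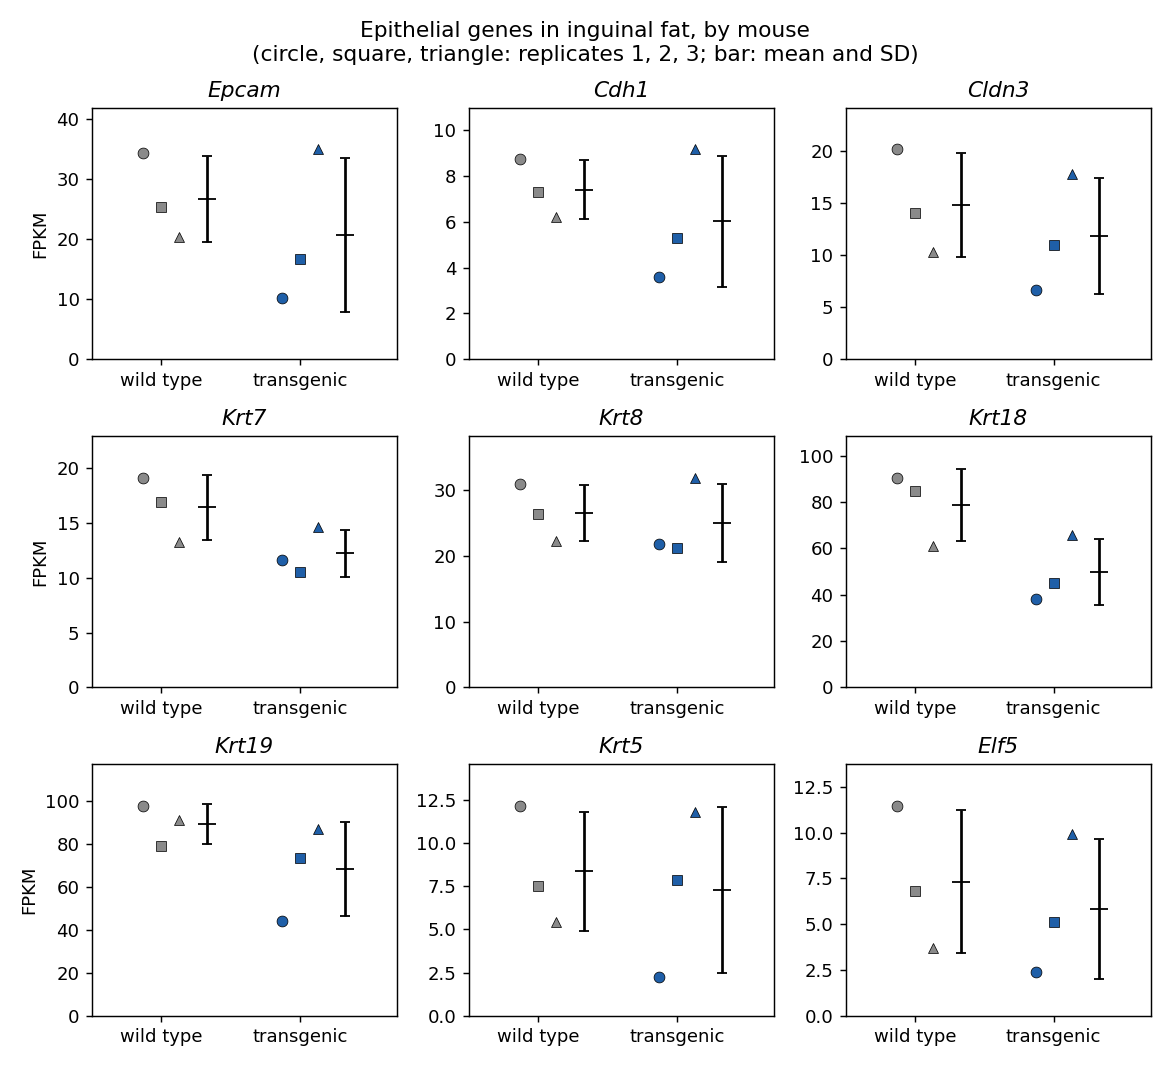
FPKM of the 9 epithelial genes with a row of their own, 1 panel per gene, each point a mouse (grey, wild type; blue, transgenic), with the mean and SD of 3 mice beside the points; every vertical axis starts at 0. The 2 genotypes overlap in every panel, and TG mouse 1 (blue circle) is the lowest point in 7 of the 9.

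Among the keratins of simple epithelia were the most abundant members, *Krt19* and *Krt18*. *Krt18*, a type I keratin on chromosome 15 from 102028215 to 102032026, had 38.2, 45.0 and 65.6 FPKM in the TG mice and 90.5, 84.8 and 61.0 FPKM in the WT mice. It had the largest fitted difference of the 9 genes, from 78.8 ± 15.6 FPKM in wild-type to 49.6 ± 14.3 FPKM in transgenic iWAT (SD, n = 3 mice each), yet TG mouse 3 lay above WT mouse 3. The log2 fold change was -0.67 (SE 0.23, 95% confidence interval from -1.20 to -0.14, limma adjusted p = 0.0792). Without TG mouse 3 it was -0.89 and the adjusted p was 0.0405, the only setting of 14 in which a member was called. *Krt7*, a type II keratin of glandular ducts, had 11.6, 10.5 and 14.6 FPKM in the TG mice and 19.1, 16.9 and 13.3 FPKM in the WT mice. Here too TG mouse 3 lay above WT mouse 3 alone, and the log2 fold change was -0.39 (95% confidence interval from -0.78 to -0.01, limma adjusted p = 0.128).

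*Krt8*, the type II partner of *Krt18*, had 21.8, 21.2 and 31.9 FPKM in the TG mice and 30.9, 26.3 and 22.3 FPKM in the WT mice. It varied least of the members, with a highest value 1.503 times the lowest, and had the smallest difference, a log2 fold change of -0.09 (95% confidence interval from -0.52 to 0.33, limma adjusted p = 0.733). Of the 100-base windows of *Krt8* transcripts in GENCODE, 17.1% also occur in transcripts of other genes, nearly all of them in the pseudogene *Krt8-ps*, so the value of *Krt8* is uncertain where the counting split such reads. *Krt19*, a type I keratin of ducts and simple epithelia, was the highest of all members, with 44.3, 73.7 and 87.1 FPKM in the TG mice and 97.8, 79.4 and 91.2 FPKM in the WT mice. TG mouse 1 lay far below the other 5, and the log2 fold change was -0.43 (95% confidence interval from -0.99 to 0.13, limma adjusted p = 0.233). Without TG mouse 1 it was -0.15.

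*Krt5* had the widest spread of the 9 genes by its highest over its lowest value, whereas *Elf5* had it by the coefficient of variation over the 6 mice (54.1% against 48.3%). *Krt5*, a type II keratin of basal and myoepithelial cells, had 2.24, 7.88 and 11.8 FPKM in the TG mice and 12.2, 7.52 and 5.43 FPKM in the WT mice. The highest value was 5.43 times the lowest, TG mouse 1 standing well below the rest. The means, 7.31 ± 4.81 and 8.37 ± 3.44 FPKM (SD, n = 3 mice each), gave a log2 fold change of -0.32 (95% confidence interval from -1.52 to 0.87, limma adjusted p = 0.676), which became 0.25 without TG mouse 1. *Krt14*, the type I partner of *Krt5*, could be read only in the row it shares with *Krt17* and *Krt42*, on chromosome 11 from 100203128 to 100269871. That row had 3.30, 12.0 and 19.8 FPKM in the TG mice and 16.8, 12.96 and 6.54 FPKM in the WT mice (log2 fold change -0.23, limma adjusted p = 0.801). It is not a value of *Krt14* alone, but it orders the TG mice as *Krt5* does, with TG mouse 1 lowest.

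*Elf5*, an ETS transcription factor of luminal progenitor and alveolar cells of the mammary gland, was the only member that is a regulator rather than a structural protein. It had 2.39, 5.11 and 9.94 FPKM in the TG mice and 11.5, 6.81 and 3.68 FPKM in the WT mice. TG mouse 1 was lowest and WT mouse 1 highest, with a factor of 4.78 between them. The log2 fold change was -0.33 (95% confidence interval from -1.48 to 0.81, limma adjusted p = 0.651), and it was 0.09 without TG mouse 1 and 0.01 without WT mouse 1. For single genes the exact permutation test (two-sided, 20 arrangements) gave p between 0.2 and 0.8 over the 9 genes, where 0.1 is the smallest p that 3 mice against 3 allow.

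**Figure D2:**
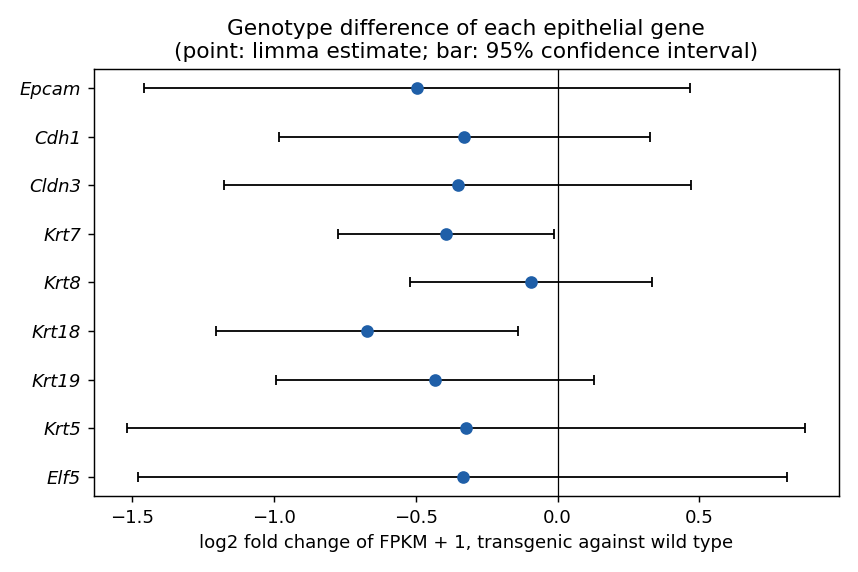
Log2 fold change of FPKM + 1 between transgenic and wild-type iWAT for each epithelial gene; points are limma estimates and bars 95% confidence intervals. All 9 points lie below 0, and the intervals of *Krt18* and *Krt7* end below 0 while the other 7 include it.

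The intervals for *Krt5*, *Elf5*, *Epcam* and *Cldn3* reached from a fall of more than 1 log2 unit to a rise of 0.47 or more, so 3 mice per genotype leave a wide range of differences for these genes. By level, *Krt19* and *Krt18* were at the top, at 89.5 and 78.8 FPKM on average in wild-type iWAT, followed by *Epcam* and *Krt8* at 26.7 and 26.5 FPKM. *Krt7* and *Cldn3* had 16.5 and 14.8 FPKM, and *Krt5*, *Cdh1* and *Elf5* had 8.37, 7.41 and 7.31 FPKM. FPKM is scaled by length, so these levels can be set side by side. Within each of these 4 steps the neighbours differed by less than the larger of their SDs over mice. In transgenic iWAT *Krt19* and *Krt18* were again highest, at 68.4 and 49.6 FPKM, and *Elf5* was again lowest, at 5.81 FPKM.

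The 9 genes mostly shared their lowest and highest mice, while the order between these differed from gene to gene. TG mouse 1 was the lowest of the 6 mice for 7 genes and TG mouse 2 for the other 2, *Krt7* and *Krt8*. WT mouse 1 was the highest for 6 genes and TG mouse 3 for the other 3, *Epcam*, *Cdh1* and *Krt8*. The summed FPKM of the 9 genes was 141, 196 and 283 in TG mice 1 to 3 and 325, 268 and 234 in WT mice 1 to 3, so the genotypes overlapped and the transgenic mice alone ranged from 141 to 283 FPKM. Among all tested loci, TG mouse 1 was lowest and WT mouse 1 or TG mouse 3 highest at 8.63%. Among the members this held for 7 of 9, but the pattern was read from these same genes, so the count is a description only. In whole tissue, fewer epithelial cells and less RNA per epithelial cell cannot be told apart.

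**Figure D3:**
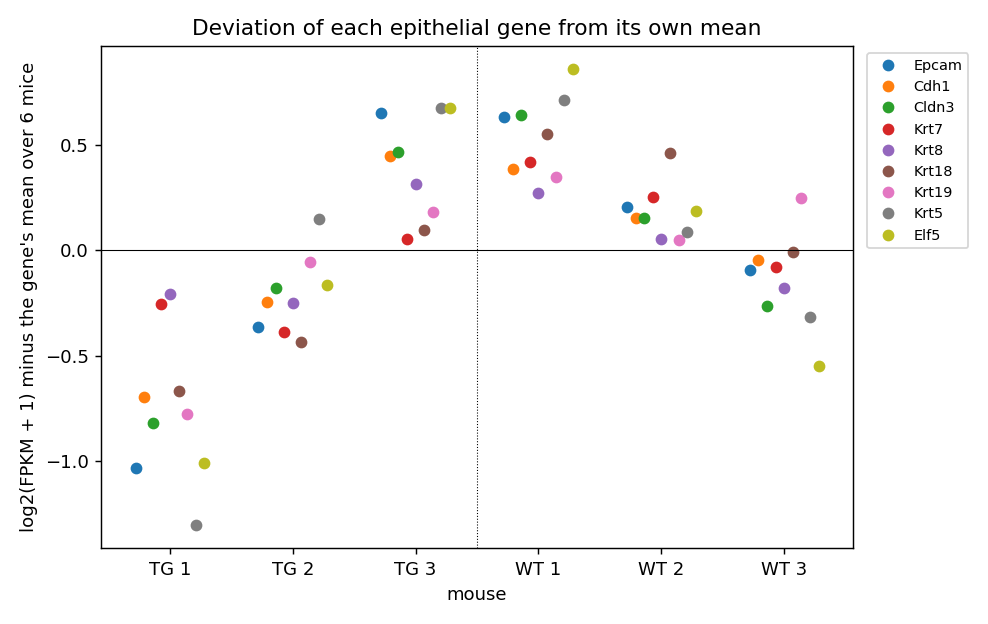
Deviation of each epithelial gene from its own mean over the 6 mice, in log2(FPKM + 1), with 1 column of points per mouse and 1 colour per gene. All 9 points lie below 0 in TG mouse 1 and above 0 in TG mouse 3 and WT mouse 1, with medians of -0.78, 0.45 and 0.55.

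Set against each other inside each mouse, the adhesion genes kept closer proportions than their levels did. The ratio of *Cdh1* to *Epcam* was 0.355, 0.316 and 0.263 in the TG mice and 0.255, 0.288 and 0.305 in the WT mice, a range of 1.40-fold where *Epcam* itself ranged 3.45-fold. The ratio of *Cldn3* to *Epcam* ranged 1.31-fold, from 0.504 to 0.660. Of the 8 ratios to *Epcam*, the genotypes overlapped in all 8, where they did not overlap for 7.42% of the loci set against *Epcam* in this way. The keratins and *Elf5* did not follow *Epcam* as closely, with ratios that ranged from 1.79-fold for *Krt19* to 2.73-fold for *Krt7*. *Krt5* and *Elf5*, at 2.13-fold and 1.84-fold, lay between these. *Krt8* was 2.16 times *Epcam* in TG mouse 1, and between 0.898 and 1.27 times in the other 5 mice.

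With *Krt8* as the reference, 2 of 7 ratios did not overlap between genotypes, where 15.3% of all loci did not. The ratio of *Krt18* to *Krt8* was 1.75, 2.13 and 2.06 in the TG mice and 2.93, 3.22 and 2.74 in the WT mice, and every transgenic mouse lay below every control. The means were 1.98 ± 0.201 and 2.96 ± 0.242 (SD, n = 3 mice each), a log2 difference of -0.58. The ratio of *Krt7* to *Krt8* was 0.532, 0.496 and 0.460 in the TG mice and 0.621, 0.643 and 0.596 in the WT mice. Each gave p = 0.1 in the exact permutation test (two-sided), the smallest possible, and an adjusted p of 0.75 over the 15 ratios compared. Because p cannot fall below 0.1 here, no ratio could have passed a threshold of 0.05, and the test cannot decide whether these differ. Both ratios rest on *Krt8*, whose reads are partly shared with a pseudogene, and the part of these reads in the result was not tested. The ratios were chosen after the levels had been seen.

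**Figure D4:**
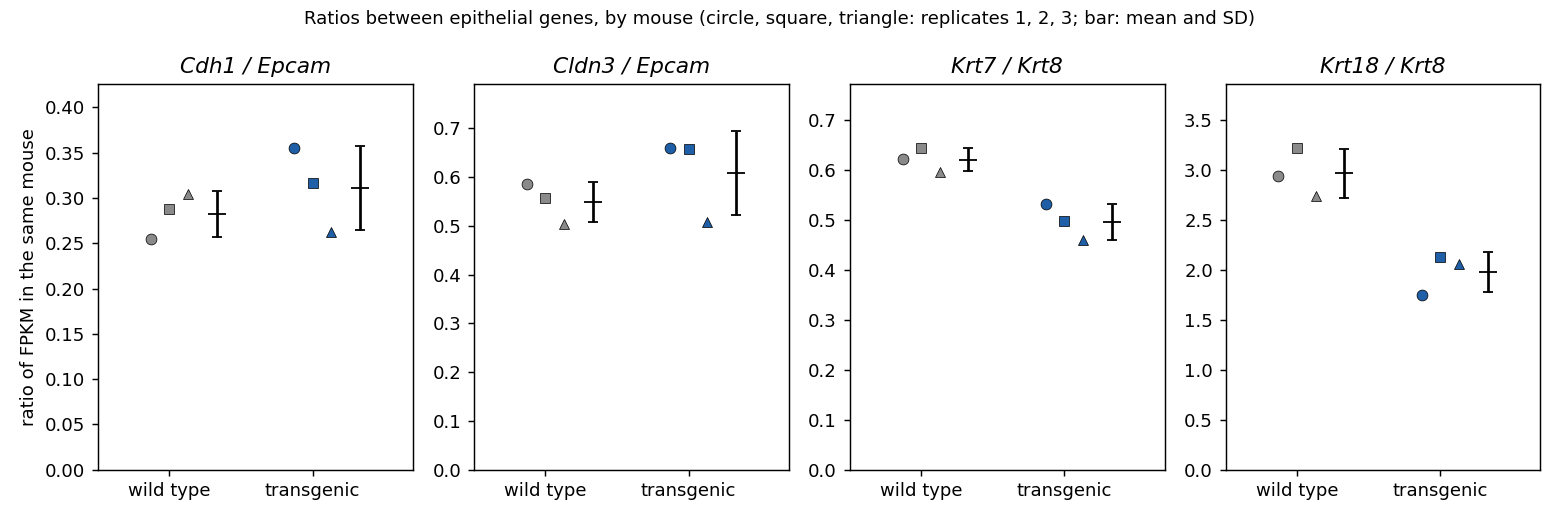
Ratio of FPKM between pairs of epithelial genes in the same mouse, each point a mouse (grey, wild type; blue, transgenic), with the mean and SD of 3 mice; axes start at 0. The ratios of *Cdh1* and *Cldn3* to *Epcam* overlap between genotypes, whereas all 3 transgenic mice lie below all 3 controls for *Krt18* to *Krt8* and *Krt7* to *Krt8*.

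The loci whose pattern over the 6 mice was most like that of the members were then listed. Each locus was centred and divided by its SD over the 6 mice, and the root mean square difference from the mean profile of the 9 members was taken for 1847 loci with a range of at least 1 log2 unit. The 10 nearest were *Klc3*, *Tfap2b*, *Mapk13*, *Rab25*, *Mpzl1*, *Irx2*, *Sox4*, *Cthrc1*, *Fxyd3* and *Cldn10*, at differences from 0.125 to 0.220 SD, where the median of the loci compared was 1.27 SD. *Rab25*, a small GTPase of epithelial vesicle recycling, had 1.35, 3.27 and 5.78 FPKM in the TG mice and 6.90, 5.35 and 3.21 FPKM in the WT mice. *Fxyd3*, a regulator of the sodium pump, was the most abundant of them, with 16.8, 27.5 and 43.2 FPKM in the TG mice and 64.6, 47.9 and 34.3 FPKM in the WT mice. In all 10, TG mouse 1 was lowest and WT mouse 1 highest, as in the mean profile by which they were chosen. Of the 10, only *Rab25* was on 1 of the 5 other epithelial lists, from which 34 loci were compared. Among the members, *Epcam*, *Cldn3* and *Cdh1* were nearest to the shared profile, at 0.142, 0.156 and 0.168 SD. *Krt7* and *Krt19* were farthest, at 0.503 and 0.476 SD. The profile is the mean of these same members, so their closeness to it is partly built in.

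Other epithelial genes, in 5 lists, were read in the same fit. Of 83 listed genes, 80 had a row and 64 passed the expression filter, of which 1 was called higher and 2 were called lower in transgenic iWAT (limma, adjusted p under 0.05), where 11.6% and 7.03% of all tested loci were. Their median log2 fold change was -0.19, against -0.01 for all tested loci, and the genotypes did not overlap for 12 of the 64, where 42.9% of all tested loci did not overlap. Of those called lower, *Lalba* passed the filter only through the controls. The myoepithelial and epidermal lists, given below, were not part of this count. Each had 1 gene called lower, *Oxtr* and *Sbsn*. TG mouse 1 was lowest and WT mouse 1 or TG mouse 3 highest for 37 of the 64 genes, or 57.8%, against 8.63% of all tested loci. By list this held for 18 of 26 adhesion and polarity genes and 12 of 16 transcription and splicing factors. It held for 4 of 9 hormone receptor and growth factor genes, 3 of 8 milk and secretory genes and 0 of 5 other keratins. The pattern was read from the members in these same mice, so this count too is a description only.

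Among 30 other genes of adhesion and polarity, 26 were tested and 0 were called (5 at an unadjusted p under 0.05, where the share of all tested loci was 36.2%). *Spint2*, an inhibitor of membrane serine proteases, was the most abundant, with a mean of 32.8 ± 8.17 FPKM in the TG mice against 41.0 ± 1.505 FPKM in the WT mice (SD, n = 3 mice each). *Prom1*, the apical membrane protein prominin, had the largest difference, with 0.329, 1.10 and 0.885 FPKM in the TG mice and 2.55, 2.23 and 1.28 FPKM in the WT mice (log2 fold change -0.77, limma adjusted p = 0.0612). The groups did not overlap for *Prom1*, which passed the filter through the controls. Among 18 transcription and splicing factors of epithelia, 16 were tested and 0 were called (2 at an unadjusted p under 0.05, against the same share). *Sox10*, a factor of mammary progenitors and also of Schwann cells, had 2.81, 5.16 and 9.61 FPKM in the TG mice. In the WT mice it had 9.94, 6.38 and 4.39 FPKM, so TG mouse 1 was lowest and WT mouse 1 highest. *Ovol1*, a zinc finger factor of surface epithelia, went the other way, at 4.24, 1.45 and 2.87 FPKM in the TG mice and 1.26, 0.949 and 1.15 FPKM in the WT mice (log2 fold change 0.80, limma adjusted p = 0.0757). *Gata3* shares a row with *9230102O04Rik* and was not counted.

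Of 11 other keratins, 5 were tested and 1 was called higher, where 11.6% of all tested loci were. It was *Krt79*, a type II keratin of hair follicle ducts and sebaceous glands. It rose from 2.46, 2.25 and 1.86 FPKM in WT mice to 6.82, 4.71 and 4.29 FPKM in TG mice 1 to 3, so the lowest transgenic value was above the highest control. The difference was 0.96 on the log2 scale (SE 0.16, adjusted p = 0.00956 by limma), and TG mouse 1, lowest for most members, was highest here. *Krt16* and *Krt6b* were listed at 0 in every mouse, but the locus given for *Krt16* is that of the merged *Krt14* row, so its 0 cannot be read apart from that row.

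Of 10 mammary hormone receptor and growth factor genes, 9 were tested and 1 was called lower, where 7.03% of all tested loci were. *Prlr*, the prolactin receptor, fell from 14.1 ± 1.51 FPKM to 7.82 ± 1.23 FPKM (SD, n = 3 mice each). The difference was -0.78 on the log2 scale (SE 0.13, adjusted p = 0.00843 by limma) with no overlap. *Prlr* was lowest in TG mouse 1 and highest in WT mouse 3, at 15.8 FPKM, a mouse that was highest for 0 of the members. Which cells of the tissue gave this RNA was not tested. *Cited1*, a co-regulator found in luminal cells, had a wide spread, at 6.17, 20.5 and 26.2 FPKM in the TG mice and 42.1, 34.6 and 15.7 FPKM in the WT mice (limma adjusted p = 0.294). Of 14 milk protein and secretory genes, 8 were tested and 1 was called lower, against the same share of all tested loci. *Lalba*, the milk protein alpha-lactalbumin, was called lower, at 0.602, 0.251 and 0.104 FPKM in the TG mice and 1.597, 1.32 and 0.860 FPKM in the WT mice (log2 fold change -0.78, limma adjusted p = 0.0362). It passed the filter only through the controls, and 6 of the 13 other settings that could fit it did not call it, among them those without TG mouse 2, TG mouse 3, WT mouse 1 or WT mouse 2 (limma adjusted p from 0.0746 to 0.102). *Csn3*, kappa-casein, was the most abundant milk gene, with 28.9, 44.0 and 71.1 FPKM in the TG mice and 82.5, 90.6 and 44.3 FPKM in the WT mice (limma adjusted p = 0.277). *Ltf*, lactotransferrin, had the largest difference of this list without a call (log2 fold change -0.80, limma adjusted p = 0.102). *Wap*, the whey acidic protein of lactation, was listed at 0 in all 6 mice.

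**Figure D5:**
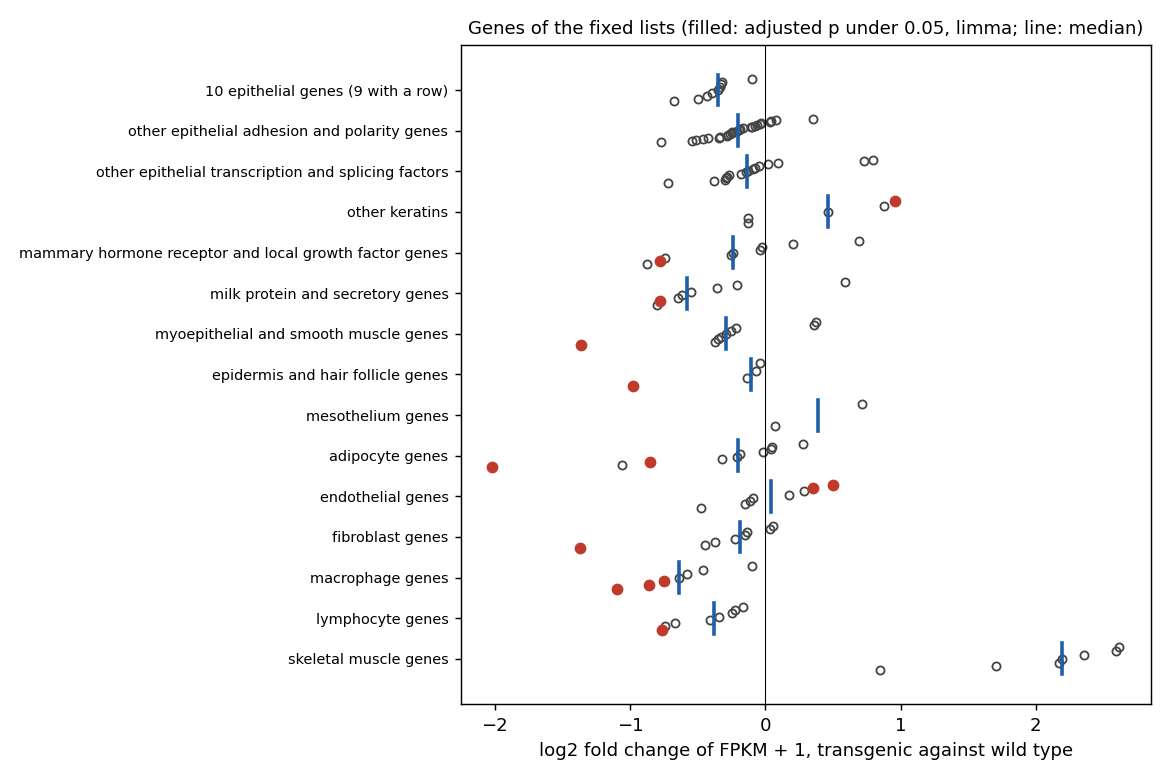
Log2 fold change of FPKM + 1 between transgenic and wild-type iWAT for each tested gene of the lists, 1 row per list; filled points have an adjusted p under 0.05 (limma), and the blue line is the median of the list. No point of the 9 epithelial genes is filled. Filled points in the 5 other epithelial lists are *Krt79*, *Prlr* and *Lalba*, the last having passed the expression filter only through the controls. *Oxtr* and *Sbsn* are filled in the myoepithelial and epidermal lists, which are not among these 5.

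Genes of myoepithelium, skin and other cell types that the sample could hold were read beside these. All 9 myoepithelial and smooth muscle genes were tested, and 1 was called lower, where 7.03% of all tested loci were. Of these 9, 6 had TG mouse 1 lowest and WT mouse 1 or TG mouse 3 highest, against 8.63% of all tested loci, again a description only. *Acta2*, smooth muscle actin, was such a gene, at 29.9, 81.7 and 110 FPKM in the TG mice and 119, 73.7 and 64.1 FPKM in the WT mice (limma adjusted p = 0.627). *Oxtr*, the oxytocin receptor, fell in transgenic iWAT, from 31.3, 20.01 and 18.5 FPKM in the WT mice to 11.3, 6.89 and 7.06 FPKM in the TG mice (log2 fold change -1.36, SE 0.24, limma adjusted p = 0.0111), with no overlap. Within the transgenic mice *Oxtr* was highest in mouse 1, where the members were mostly lowest.

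Most markers of skin and of mesothelium were under 1 FPKM. Of 14 epidermal and hair follicle genes with a row, 10 were under 1 FPKM in every mouse, among them *Lor*, *Ivl* and the hair keratins *Krt25*, *Krt27* and *Krt71*, with *Krt2* and *Krt35* listed at 0, and the summed level of the list was 23.0 to 28.3 FPKM in TG and 32.1 to 46.3 FPKM in WT mice. *Sbsn*, which encodes suprabasin of stratified epithelia, was its most abundant gene on average and fell from 23.6 ± 2.14 FPKM to 11.8 ± 3.22 FPKM (SD, n = 3 mice each; log2 fold change -0.98, limma adjusted p = 0.0144). *Lgals7*, *Dmkn* and *Krtdap* of the epidermal list also passed the filter and were not called. So 1 of the 4 tested genes of this list was called lower, where 7.03% of all tested loci were. *Lgals7* had 2.25, 5.53 and 17.5 FPKM in the TG mice and 13.6, 4.54 and 4.61 FPKM in the WT mice. Its lowest value was that of TG mouse 1 and its highest that of TG mouse 3. Over the 6 mice *Dmkn* ranged from 1.08 to 4.43 FPKM and *Krtdap* from 0.889 to 3.88 FPKM. Of 8 mesothelium genes with a row, 5 were under 1 FPKM in every mouse, and *Wt1* was listed at 0 in all 6. The largest difference in that list was that of *Rspo1*, at 0.72 on the log2 scale (limma adjusted p = 0.153).

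Lymphocyte and macrophage genes shared the low end of the members' order but not its high end. TG mouse 1 was lowest for 7 of 8 lymphocyte genes and 7 of 7 macrophage genes tested, against 25.5% of all tested loci, and 0 of them had TG mouse 3 or WT mouse 1 highest. The summed level of lymphocyte genes was 233 to 348 FPKM in TG and 329 to 461 FPKM in WT mice, with 1 called lower, *Ms4a1*, which encodes the B cell antigen CD20 (log2 fold change -0.76, limma adjusted p = 0.0361). *Cd79b*, part of the B cell receptor, was the most abundant (limma adjusted p = 0.0609). The summed level of macrophage genes was 593 to 874 FPKM in TG and 1078 to 1479 FPKM in WT mice. Of these genes 3 were called lower, *Lyz2*, *Cd68* and *Csf1r*, at log2 fold changes of -1.10, -0.86 and -0.75 (limma adjusted p = 0.00823, 0.0040 and 0.0185). Of all tested loci, 7.03% were called lower. Skeletal muscle genes, all 7 highest in TG mouse 2, summed to 91.0, 650 and 130 FPKM in TG mice 1 to 3 and to 7.20, 138 and 38.2 FPKM in the WT mice, and 0 of 7 were called (2 at an unadjusted p under 0.05, against 36.2% of all tested loci). *Acta1*, skeletal actin, was the most abundant there, and *Ckm*, muscle creatine kinase, had the largest difference, 2.62 on the log2 scale (limma adjusted p = 0.167). The share of these cell types in the differences of the members was not tested.

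The lists of adipocytes, fibroblasts and endothelium were mixed in direction. In these lists 7 of 10, 6 of 8 and 4 of 8 tested genes were negative, and 2, 1 and 0 were called lower. Of all tested loci, 51.6% were negative, 7.03% were called lower and 11.6% higher. *Retn*, *Adipoq* and *Dpt*, which encode the adipokines resistin and adiponectin and the matrix protein dermatopontin, fell, with log2 fold changes of -2.02, -0.85 and -1.37 (limma adjusted p = 0.00346, 0.0172 and 0.00275). *Emcn* and *Kdr*, of endothelial cells, rose by 0.50 and 0.35 on the log2 scale (limma adjusted p = 0.0222 and 0.0329), while *Vwf*, von Willebrand factor, had -0.47 without overlap and was not called (limma adjusted p = 0.0696). *Fabp4*, *Dcn* and *Pecam1* were the most abundant genes of these 3 lists, at 0.28, -0.37 and -0.09 on the log2 scale, and were not called (limma adjusted p = 0.531, 0.124 and 0.632). The calls of *Adipoq*, *Emcn*, *Kdr*, *Csf1r* and *Ms4a1* were each lost without at least 1 of the mice, with limma adjusted p of at most 0.101.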

How the data were processed

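RNA-Seq was performed on iWAT of 3 transgenic and 3 wild-type mice, each library being 1 mouse. The authors aligned single-end reads of 100 bases to mm10 using TopHat2 2.0.9 and Bowtie2 2.1.0 and quantified genes with Cufflinks 2.2.1 (versions from the submitters' processing notes, which also name CASAVA 1.8.2). The authors deposited FPKM per gene locus and mouse. The annotation is not given in the sources used here. FPKM are not counts, so no count test was run, and a level is relative to all other RNA in the tissue.

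Values were tested as log2(FPKM + 1) for the 11692 loci whose mean exceeded 1 FPKM in either genotype. The test was limma 3.58.1 under R 4.3.3, with genotype as the only term, a trended prior and two-sided p-values adjusted by the Benjamini-Hochberg method. The added 1 understates changes of low genes. For a symbol on several loci, the one with the highest mean was used. The procedure was tested on simulated data. Named genes are the members, the genes of each list that were called, most abundant or most changed, and the 10 loci nearest in profile. Also named are *Vwf*, markers listed at or near 0 and the remaining tested epidermal genes, all chosen after their values were seen. The members and lists were chosen with earlier results of these data known. Alternatives were a pseudocount of 0.1, another filter and none, quantile and median-ratio scaling, an untrended prior, quality weights per sample, a block for the replicate number, and each mouse left out. Windows of 100 bases came from GENCODE transcripts and promoters from RefSeq. Figures were drawn with matplotlib 3.10.9.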

Additional observations from a re-analysis of the deposited data

How the results depend on the processing

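Over 14 other settings, 126 values of the 9 members were computed. The side of the threshold changed in 1, *Krt18* without TG replicate 3 (-0.89, adjusted p = 0.0405), and the sign changed in 8, none of them called. With sample quality weights *Krt8*, *Krt5* and *Elf5* had log2 fold changes of 0.036, 0.10 and 0.025. *Krt8* was at 0.01 and 0.017 without TG replicate 2 and without WT replicate 1, *Krt5* at 0.25 and *Elf5* at 0.088 without TG replicate 1, and *Elf5* at 0.01 without WT replicate 1. With each mouse left out, *Krt8* ranged from -0.28 to 0.017, *Krt5* from -0.74 to 0.25 and *Elf5* from -0.76 to 0.088. With each mouse left out, 0 to 1 members were called lower. The other 6 members kept a negative value in all 14 settings.

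Over all loci, the counts ranged from 780 to 1295 higher and from 329 to 906 lower with each mouse left out. Of the other epithelial lists, 3 genes were called higher and 7 lower with sample quality weights, and 1 lower with the pseudocount of 0.1, with the filter on the mean of all mice and with quantile normalization; with each mouse left out 1 to 3 were higher and 1 to 4 lower. The other cell type lists include the myoepithelial and epidermal ones. Of their genes, 14 were lower with quantile normalization and 6 higher with the replicate block. With a mouse left out, 0 to 1 were higher and 6 to 16 lower. The causes were not tested.

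The replicate numbers of the labels number different animals. Same-numbered mice deviated together with correlations of 0.01, 0.03 and 0.07 across loci, and no mouse correlated best with its own number, so they were not taken as pairs. With the replicate block 1230 loci were higher and 656 lower, and no member was called (*Krt18* adjusted p = 0.151). *Lalba* was not called without TG mouse 2 or 3 or WT mouse 1 or 2, *Adipoq* without TG mouse 3 or WT mouse 2, *Emcn* without TG mouse 3 or WT mouse 2 or 3, *Kdr* when any mouse other than WT mouse 3 was left out, *Csf1r* without TG mouse 1 or 3 or WT mouse 3, and *Ms4a1* without TG mouse 1 or 3 or WT mouse 2. The block also ended the calls of *Emcn*, *Kdr* and *Csf1r* (limma adjusted p = 0.0585, 0.0616 and 0.0518). With all mice kept and no expression filter, *Adipoq* and *Ms4a1* were not called (limma adjusted p = 0.0814 and 0.0653). *Lalba* was not called with the pseudocount of 0.1 or with quantile normalization (limma adjusted p = 0.0502 and 0.0582). With 3 mice per genotype, the 95% intervals of *Krt5* and *Elf5* span over 2 log2 units.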
